A study of Mus musculus with 3 samples.

Results

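The translatome described here is that of primary mouse cortical neurons that received no drug before lysis (WT), which is 1 of the 3 libraries of a ribosome profiling series. Ribosome profiling sequences the stretches of mRNA that ribosomes shield from nuclease, so that reads mark where on an mRNA ribosomes sat. The cells came from the cortex of CD-1 embryos and were grown in Neurobasal medium with B27 and GlutaMAX. The other libraries, treated with cycloheximide (Chx) or harringtonine (Harr), are not analysed here. Lysate from 3 pooled dishes made up the WT library, and the wash and lysis buffers held cycloheximide at 100 μg per ml, so "no drug" refers to the culture and not to the lysate. The labels name no genotype. The free text of this sample names a fraction of depolarised neurons that does not match its treatment label, and the treatment label was followed. With 1 library there is no replicate, so no test was run, and every interval below covers counting error only.

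The members are the genes of the WT library. There were 20823 genes with a transcript annotated in all 3 regions, and the longest of these transcripts stood for the gene. The library held 30219197 reads, of which 18185658 (60.2%) fell on these transcripts. Genes were ranked by density, the number of CDS reads divided by the CDS length in nucleotides. Of these genes, 12980 had at least 10 CDS reads and 8488 had at least 200. A read was counted at its 5′ end, which lies upstream of the codon being decoded. A ribosome on the start codon therefore counts in the 5′ UTR.

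In a ribosome profile, the reads on a CDS combine how much mRNA is present, how often ribosomes start on it and how fast they move, and these factors cannot be told apart here. The 5′ UTR, or leader, is where scanning ribosomes look for a start codon. Short upstream ORFs (uORFs) in it are known to capture part of the ribosomes before they reach the CDS, and mRNAs of the stress response such as Atf4 are the classic example. The 3′ UTR lies behind the stop codon and normally carries few ribosomes, so it gives the background. Developing cortical neurons are known for high synthesis of cytoskeletal, growth cone and vesicle proteins.

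The CDS held 91.7% of the reads on these transcripts (16673134 reads, Wilson 95% interval 91.7 to 91.7). The 5′ UTR held 6.14% (6.13 to 6.15) and the 3′ UTR 2.18% (2.17 to 2.19). Per kilobase this was 504.1 reads in the CDS, 211 in the 5′ UTR and 12.6 in the 3′ UTR. Leaving out genes with a UTR that overlaps an annotated CDS brought the 3′ UTR share to 1.02%.

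The start sites of 6 of the densest genes with nearly unique sequence are printed first, because the reads of the 5′ UTR and CDS meet there. Each window runs from 12 bases before to 18 bases after the start of the CDS, 5′ to 3′ on the mRNA strand, with the annotated start codon in capitals. The sequences come from GENCODE M21 on mm10, for the transcript of each gene with the most reads.

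Tmsb4x: cttccagcaaccATGtctgacaaacccgat
Nnat: actttcggaaccATGgccgcagtggcagca
Mllt11: taacaggggatcATGagggaccctgtaagt
Stmn2: cacatccctacaATGgctaaaacagcaatg
Mapt: ctttgaaccagtATGgctgaccctcgccag
Gap43: gaagataccaccATGctgtgctgtatgaga

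The first base of these start codons lies at position 167208036 of chromosome X (Tmsb4x, minus strand). For Nnat it is position 157560189 of chromosome 2 (plus) and for Mllt11 position 95220457 of chromosome 3 (minus). For Stmn2 it is position 8509612 of chromosome 3 (plus). For Mapt it is position 104282381 of chromosome 11 (plus) and for Gap43 position 42340502 of chromosome 16 (minus). All 6 windows have A 3 bases before the start codon, and 3 of the 6 have G directly after it. The longest transcript of Tmsb4x, on which its rank rests, starts at position 167208325 instead, with G 3 bases before the start codon. Over 12906 genes with at least 10 CDS reads and an ATG start, 86.3% have A or G 3 bases before the start codon, 47.2% have A there, and 52.4% have G after it. In the densest decile of these genes the share with A or G was 91.5% against 85.3% in the sparsest decile, and among genes with nearly unique sequence it was 90.2% against 84.8%. The base after the start codon did not follow the same order, with G in 49.9% of the densest and 50.04% of the sparsest decile. The densest decile also had shorter CDSs, with a median of 705 against 2106 nucleotides, and fewer leaders with an upstream ATG, 41.1% against 56.7%.

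Densities spanned several orders of magnitude. The median over the 12980 genes with at least 10 CDS reads was 0.276 reads per nucleotide, with quartiles of 0.0827 and 0.830, and 5% of genes lay above 4.91. The highest density, that of Tmsb4x, was 881 times the median. The 100 densest genes held 15.1% of all CDS reads (Wilson interval 15.1 to 15.1), and the 1000 densest held 49.5%. Ranked by read number instead, 736 genes held 50% of the CDS reads and 5000 genes held 90%.

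At the top stood a small regulator of the cytoskeleton. Tmsb4x, which encodes the actin monomer-binding peptide thymosin beta 4, had 37173 reads in a CDS of 153 nucleotides, or 243 reads per nucleotide (Poisson 95% interval 240.5 to 245). Its transcript with the most reads starts at a downstream ATG and had a density of 221. No other gene came within counting error of it by either transcript.

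Next came genes known from growing neurons. Nnat, which encodes the small membrane protein neuronatin and is imprinted, had a density of 96.1 (94.9 to 97.4). Mllt11, which encodes a small protein abundant in developing neurons, had 74.0 (72.9 to 74.98). The tubulin-binding stathmins Stmn2 and Stmn3 had 64.6 (63.9 to 65.2) and 50.8 (50.2 to 51.4). Mapt, which encodes the axonal microtubule-associated protein tau, had 54.8, and the growth cone protein gene Gap43 had 53.5. The membrane glycoprotein gene Gpm6a had 49.96 and the 14-3-3 gene Ywhag had 53.4. Of these, Ywhag and Gap43 were within counting error of each other, with intervals of 52.8 to 53.9 and 53.0 to 54.1, and so were Stmn3 and Gpm6a (49.5 to 50.4).

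Vesicle, G protein and peptide genes stood lower among the 25 densest. Vamp2, the SNARE of synaptic vesicles, had 47.2, although its transcript with the most reads has a longer CDS and a density of 30.7. The G protein gamma subunit genes Gng3 and Gng2 had 46.4 and 45.7, and 29.2% of the Gng2 CDS is shared with its processed pseudogene. Sst, the gene for the inhibitory neuron peptide somatostatin, ranked 20th with 44.8 (44.1 to 45.5). Atp5g3, which encodes a subunit of the membrane ring of ATP synthase, had 42.9, and Nsg2, a neuron-specific protein of endosomes, had 42.2.

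The remaining members of this list belong to families of near-identical sequence, which is where the ranking depends most on how reads were placed. Sequence sharing was measured as the percent of a CDS's 25-nucleotide words that also occur in transcripts of other genes. It was at least 10% for 9 of the 25 densest and 45 of the 100 densest genes, beside 18.3% of the 8488 genes with at least 200 CDS reads. For 30 of those 45 genes, the transcript holding most of the shared words was a processed pseudogene, an intronless genomic copy of an mRNA. Actb (beta-actin) had a density of 108 with 54.8% shared words, Cfl1 (cofilin) 56.6 with 75.3%, and Stmn1 62.6 with 97.2%. Calm3, which encodes the calcium sensor calmodulin, had 42.2 with 35.0%, and Tubb2a (beta-tubulin) 40.1 with 71.6%. Gm8797 had a density of 129, and 88.1% of its words occur in the ubiquitin gene Ubb. Ubb itself had 55.8. It encodes a chain of ubiquitin repeats, and 75.2% of its words occur more than once within its own CDS. Tuba1c ranked 21st with 59284 CDS reads, but its 5′ UTR of 531 nucleotides and its 3′ UTR had 0 reads, and 86.0% of its words occur in Tuba1b.

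**Figure D1:**
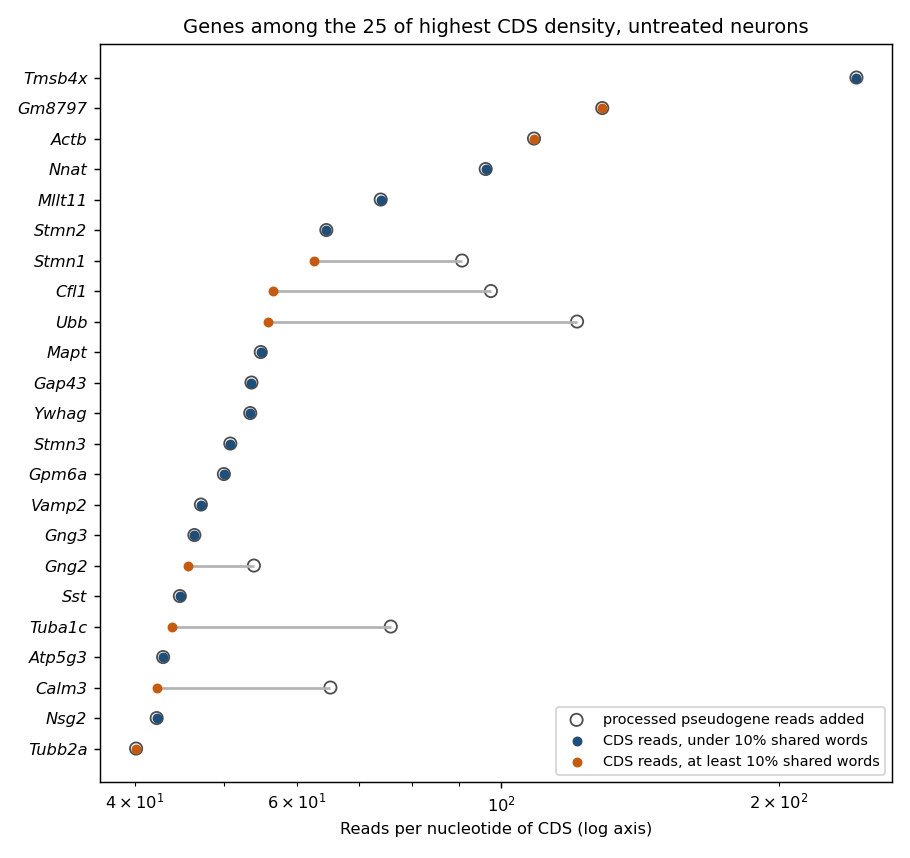
CDS density, in reads per nucleotide on a log axis, of 23 of the 25 densest genes, each with at least 200 CDS reads, without drug. Filled points are CDS reads as counted, coloured by whether at least 10% of the 25-nucleotide words of a CDS occur in other genes, and open circles add reads on processed pseudogenes. Tmsb4x lies highest at 243, and adding these reads moves Ubb from 55.8 to 121 while genes of nearly unique sequence stay in place.

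Reads on processed pseudogenes show how far such families reach. The tables hold 10234 processed pseudogenes without a CDS, with 3082840 reads or 10.2% of the library (10.2 to 10.2). Of these reads, 2827143 lay outside coding exons on copies that share at least 10% of their words with the CDS of a described gene, which equals 16.96% of the CDS reads. This allocation to a parent gene was added after the data were seen. Each copy went whole to the gene whose CDS shares most of its words, and copies that overlap exons of coding transcripts were left out. The split among paralogs thus depends on this rule, by which Actb received 0 reads and Actg1 133760. It may include reads from UTR parts of a copy. Whether the reads came from the parent mRNA or from the copy was not tested.

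With these reads added to the parent, housekeeping genes moved far up. Eef1a1, the elongation factor that brings aminoacyl-tRNA to the ribosome, had 36958 CDS reads and 153701 on copies, and its rank went from 56 to 5. Ppia, the prolyl isomerase cyclophilin A, had 2766 CDS reads and 69862 on copies, and moved from rank 550 to 2 with a density of 154. Gapdh, an enzyme of glycolysis, had only 631 reads in its own CDS against 59591 on copies, and moved from rank 4006 to 23. Actg1 (gamma-actin) moved from rank 113 to 6, Tmsb10 from 140 to 4, and Ywhaz from 91 to 11. Of the 25 densest genes, 13 stayed among the 25 densest, and 62 of the 100 densest stayed among 100. Tmsb4x remained first with either count.

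Groups of coding genes with identical CDSs at different loci were compared as well. By annotated sequence, a read that lies wholly within such a CDS matches each of these loci. There were 23 such groups with at least 200 CDS reads, and in 18 of them the highest count was over 1.5 times the lowest. Rtl8b had 8262 CDS reads and Rtl8a 639. The histone H4 genes Hist1h4m and Hist1h4n had 8413 and 1440. The cause of these unequal counts was not tested.

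To describe what the neurons were making, genes were sorted by symbol into 28 functional classes and 2 classes added later, which together held 52.4% of the CDS reads. Leading genes are given by density as counted. The class of axon growth and cell adhesion genes held the most as counted, 4.24% (4.23 to 4.25) from 209 genes. With pseudogene reads added, ribosomal proteins (3.99%) and chaperones (3.66%) lay above it (3.62%). Its median density was 0.424, at the 59.7th percentile of all genes, and Gap43 (53.5), Gpm6a (49.96) and Ncam1 (24.1), a cell adhesion molecule, led it. Microtubule-associated proteins and stathmins held 3.80% from 52 genes with a median of 1.67. RNA-binding and splicing proteins held 3.31%, led as counted by Hnrnpa2b1 (11.7) and Pcbp1 (11.2), both of which bind RNA. With pseudogene reads added, Hnrnpa2b1 reached 18.01 and Hnrnpk, another member, went from 6.89 to 22.3. Proteasome and ubiquitin genes held 3.22%, and Uchl1, a neuronal deubiquitinase whose CDS shares no words with other genes, had 33.96.

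Signalling genes held 3.19% of the CDS reads and chaperones 2.84%, the latter led as counted by Hspa8 (37.95), the constitutive Hsp70, Fkbp1a (25.7) and Hsp90ab1 (20.1). With pseudogene reads added Hspa8 reached 83.95, below Ppia at 154. Synaptic vesicle and active zone genes held 2.73%, and after Vamp2 the densest were Syp (24.2), a vesicle membrane protein, and Rab3a (22.7), a vesicle GTPase. Postsynaptic scaffolds and glutamate receptors held 0.888%, and only Nsg2 and Nsg1 (30.9) stood among the 100 densest genes. The next in that class was Grina (6.69), which entered by its name and is not a receptor subunit. Voltage-gated and GABA-gated channels held 0.595%, led by the GABA-A receptor subunit gene Gabra2 (5.12). Trpc4ap (2.02) entered by its name. Presynaptic reads thus outnumbered postsynaptic and channel reads, at median densities of 0.932, 0.390 and 0.180 over the genes with at least 10 reads.

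By median density, the order of the classes was different. The 84 nuclear-encoded subunits of oxidative phosphorylation with at least 10 reads had the highest median as counted, 7.17 reads per nucleotide, which stood at the 96.8th percentile of all genes. With pseudogene reads added it was 11.1, below the 18.4 of cytosolic ribosomal proteins. They held 2.34% of the CDS reads, and 13 of them were among the 100 densest genes, including Cox7b (39.0), Ndufa4 (34.2) and Cox8a (30.6). Their CDSs are short, with a median of 393 nucleotides. MAGE, BEX, TCEAL and necdin genes, a class added after the values were seen, had a median of 5.78, led by Bex2 (34.1), Ndn (23.7) and Bex3 (23.6). Genes of sterol and fatty acid synthesis, also added later, held 1.15% with a median of 2.47, led by Hmgcs1 (29.5), which makes HMG-CoA, the desaturase gene Scd2 (20.2) and Msmo1 (7.26). Lysosomal and secretory genes had a median of 3.39, led by Sst, the lysosomal saposin precursor gene Psap (32.6) and Scg5 (26.01). Collagen and matrix genes had the lowest median, 0.0303, and their densest members were Ncan (3.94), Hapln1 (2.73) and Reln (2.66), all parts of brain matrix.

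Cytosolic ribosomal protein genes changed place most with the pseudogene reads. Counted by CDS reads alone, the 85 genes held 1.23% (1.23 to 1.24) of the CDS reads with a median density of 3.75, and a median of 97.6% of their words occur in other genes. With reads on copies added, the share was 3.99% and the median density 18.4. Copies carried reads for 79 of these genes and more reads than the CDS for 63 of them. Rps29, for instance, had 73 CDS reads and 13637 on copies. Translation factors went from 1.68% to 2.61%, a change set largely by Eef1a1, and tubulins from 1.83% to 2.42%. These were the classes whose share rose most by ratio, at 3.23, 1.55 and 1.32 times. Mitochondrial ribosomal proteins, whose copies carried 10119 reads, held 0.362% both ways.

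**Figure D2:**
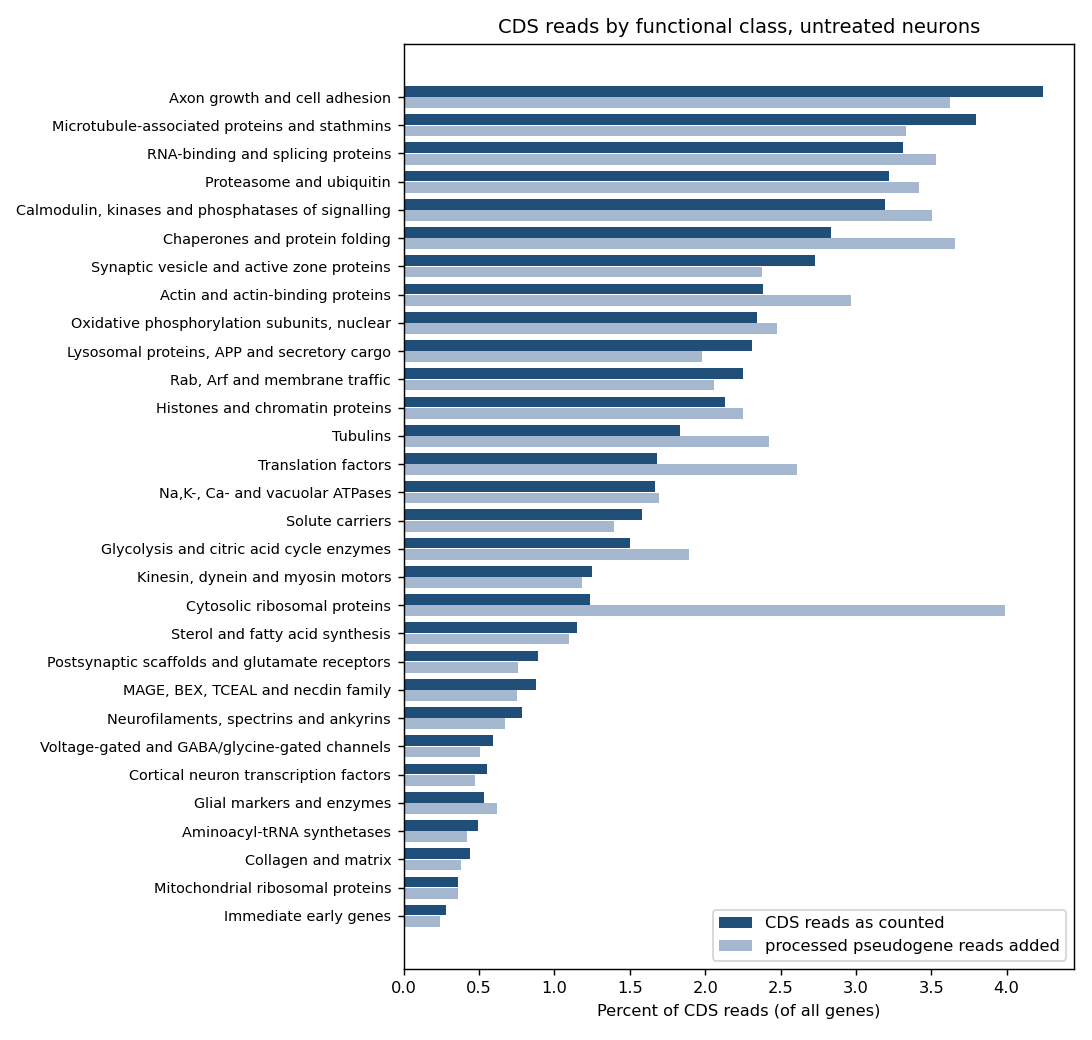
Percent of all CDS reads held by each functional class in the untreated library, as counted (dark bars) and with reads on processed pseudogenes added to the parent gene (light bars). Cytosolic ribosomal proteins go from 1.23% to 3.99%, while axon growth and cell adhesion genes go from 4.24% to 3.62%.

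Transcription factor and immediate early genes were measured as well. Transcription factors of cortical neurons held 0.553% at a median density of 0.775, led by Id2 (6.89), Mef2c (6.31), a factor of activity-dependent transcription, and Sox4 (6.12). Immediate early genes, known to be induced by neuronal activity, held 0.282% from 23 genes, all with at least 10 reads. Fosl2 (7.55), Fos (6.28) and Nr4a3 (4.46) were the densest of them.

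Subunits of protein complexes offer a view within single assemblies, chosen here with the values known. Of 8 listed subunits of the CCT chaperonin, which folds actin and tubulin, 7 were measured. Their densities ran from 3.81 (Cct3, 3.72 to 3.91) to 7.29 (Cct7, 7.16 to 7.42), a span of 1.91 times. The 14 subunits of the 20S proteasome core spanned 5.42 times, from Psma5 (1.70) to Psmb1 (9.22). The lowest 4 of these, Psma5, Psmb5, Psma3 and Psma4, have between 66.8% and 93.3% shared words. With reads on copies added, the proteasome core spanned 2.36 times, from 4.51 to 10.7. For the 15 ATP synthase genes the span likewise went from 35.5 to 4.23 times.

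Other assemblies remained uneven. The vacuolar ATPase, which acidifies vesicles, ran from Atp6v1c1 (2.76) to Atp6v0e2 (30.5), with the proton-ring subunit Atp6v0c at 22.4, or 119 with copies. Among neuronal SNARE genes, which share little sequence, Vamp2 had 47.2, Snap25 21.4 (21.1 to 21.8) and Stx1a 3.34. Vamp1 had 122 reads and a density of 0.345. This order exceeded counting error at each step.

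Paralogs in neuronal families differed by wide margins. Among the beta subunits of the sodium pump, Atp1b1 had a density of 31.1, Atp1b2 3.80 and Atp1b3 1.84, although Atp1b3 has 55.6% shared words and reached 3.49 with copies. Among AMPA-type glutamate receptor genes Gria2 led with 2.83, followed by Gria1 with 1.58, Gria4 with 0.490 and Gria3 with 0.416. Among NMDA-type receptor genes the obligate subunit Grin1 had 4.18, Grin2b 0.781 (0.756 to 0.808) and Grin2a 0.0717 (0.0640 to 0.0800), although 49.4% of the words of Grin2a occur in other genes. Grin3b had 0 of the 16673134 CDS reads, which allows up to 3 reads at this depth.

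Neurofilament genes were led by Ina (5.97), which encodes alpha-internexin, and Nefl (3.69). Nefm had 1.31 and Nefh, the heavy subunit, 0.156. Prph (peripherin) had 45 reads. Synapsin genes fell in the order Syn1 (6.50), Syn2 (2.39) and Syn3 (0.869, or 0.568 on its transcript with the most reads).

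**Figure D3:**
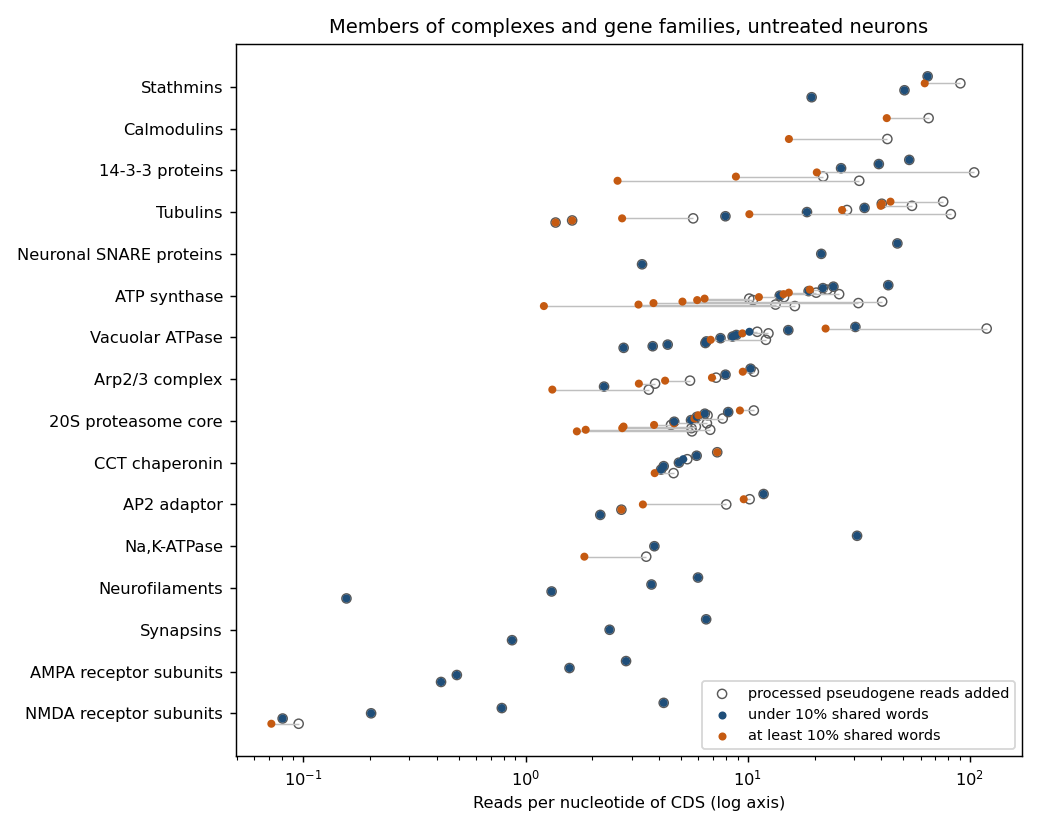
CDS density, in reads per nucleotide on a log axis, of described members (at least 200 CDS reads each) of 16 complexes and gene families of the untreated library. Filled points are CDS reads as counted, coloured by shared sequence, and open circles joined by lines add processed pseudogene reads. The CCT chaperonin spans 1.91 times and the proteasome core narrows from 5.42 to 2.36 times with these reads, while glutamate receptor and neurofilament genes stay spread.

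The label of cortical neurons was checked against cell type markers. All 8 general neuron markers had at least 200 CDS reads, with a median density of 8.44. Snap25 (21.4), Tubb3 (18.5), Map2 (12.3) and Syt1 (10.4) led, and the lowest were the postsynaptic scaffold gene Dlg4 with 0.743 and Rbfox3, which encodes the nuclear marker NeuN, with 0.396. Markers of inhibitory neurons were denser than those of excitatory neurons. Gad1, which makes GABA, had 12.6, the vesicular GABA transporter gene Slc32a1 6.38 and Gad2 4.43. The interneuron transcription factor genes Dlx2 and Dlx1 were sparser, at 0.822 and 0.612. For the excitatory list, Neurod6 had 3.55, Tbr1 1.33, Neurod2 0.924, and the vesicular glutamate transporter genes Slc17a6 0.503 and Slc17a7 0.328. The lists held 0.249% (inhibitory) and 0.0529% (excitatory) of the CDS reads. In a bulk library, more cells of a type and more ribosomes per cell cannot be told apart.

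Markers of astrocytes were also measured, at 0.0586% of the CDS reads (9765 reads), beside 0.0529% for the excitatory list (8812 reads). Slc1a3 and Slc1a2, both glutamate transporters, had 2.33 and 1.94, above Tbr1, while Gfap had 68 reads and a density of 0.0526. Fabp7, a fatty acid-binding protein of radial glia and astrocytes and a member of the glial class, had 12.4, or 19.1 on its transcript with the most reads. For the oligodendrocyte lineage, Pdgfra, a marker of precursors, had 0.349, Mbp had 145 reads, and Mog and Mobp had 0. The 4 microglia markers had 81 reads in all. Of the stromal and endothelial markers, Cldn5 had 0 and Col1a1 had 0.0855. The progenitor marker Sox2, which astrocytes also express, had 1.81, and Mki67, a marker of dividing cells, 0.0307. The part of glial cells in the class shares above was not tested.

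The 5′ UTR to CDS ratio compares the density of the leader with that of the CDS of the same gene. It was taken over 7160 genes with at least 200 CDS reads, a 5′ UTR of at least 50 nucleotides and no overlap with another CDS, with 0.5 added to each count. The median was 0.342, with quartiles of 0.152 and 0.718, and 5% of genes lay above 1.85. Counting only exons upstream of the exon with the start codon, the median over 2616 genes was 0.176. A ratio of at least 1, meaning a leader at least as dense as its CDS, was found for 1123 genes, or 15.7%. In the upstream exons alone, 10.7% of the 2616 genes reached it. By contrast, the 3′ UTR to CDS ratio over 7391 genes had a median of 0.00726. Over the 6321 genes with both values, the leader was a median of 45.2 times as dense as the 3′ UTR, and it was the denser of these UTRs in 97.3%. These leader counts include ribosomes on the start codon, while ribosomes on the stop codon count in the CDS.

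**Figure D4:**
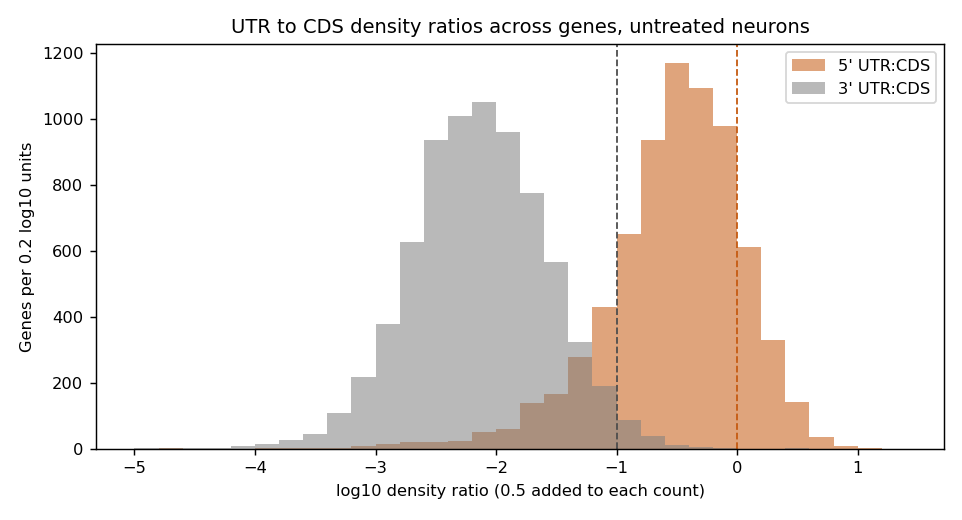
Number of genes of the untreated library by the log10 of the 5′ UTR to CDS density ratio (7160 genes) and of the 3′ UTR to CDS ratio (7391 genes), in bins of 0.2. Dashed lines mark the ratios of 1 and 0.1 that were used to count genes. The distributions have medians of 0.342 and 0.00726, with the 5′ UTR values to the right.

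Genes with upstream ATGs had higher ratios of leader to CDS density. The median ratio was 0.251 for 3131 genes without an ATG in the leader, 0.399 for 1682 genes with 1, 0.527 for 814 genes with 2, 0.576 for 873 genes with 3 to 4, and 0.582 for 636 genes with 5 or more. The share of genes with a ratio of at least 1 went from 6.04% to 32.1% over the same groups, beside 15.7% of all. Longer leaders hold more ATGs, so the groups were also split by length. In leaders over 100 and up to 200 nucleotides the median was 0.252 without and 0.529 with an upstream ATG, and in those over 500 nucleotides it was 0.166 (52 genes) and 0.473. For leaders whose upstream ATGs open at least 1 ORF that ends within the leader the median was 0.486, and for those with only frames that run into the CDS it was 0.438.

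The difference depended on how dense the CDS was. In the quintile of genes with the sparsest CDS the median ratio was 0.364 without and 0.891 with an upstream ATG, and 43.8% of the latter genes had a ratio of at least 1. In the densest quintile the order was the opposite, with 0.190 without (799 genes) and 0.143 with an upstream ATG (628 genes). Using the transcript with the most reads, these values were 0.194 and 0.168. The CDS count enters both the ratio and the grouping, so that a lower ratio in denser quintiles follows in part from the way they are computed. In leader exons upstream of the exon with the start codon, which exclude most footprints of ribosomes on the annotated start, the median was 0.0826 without and 0.256 with an upstream ATG.

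**Figure D5:**
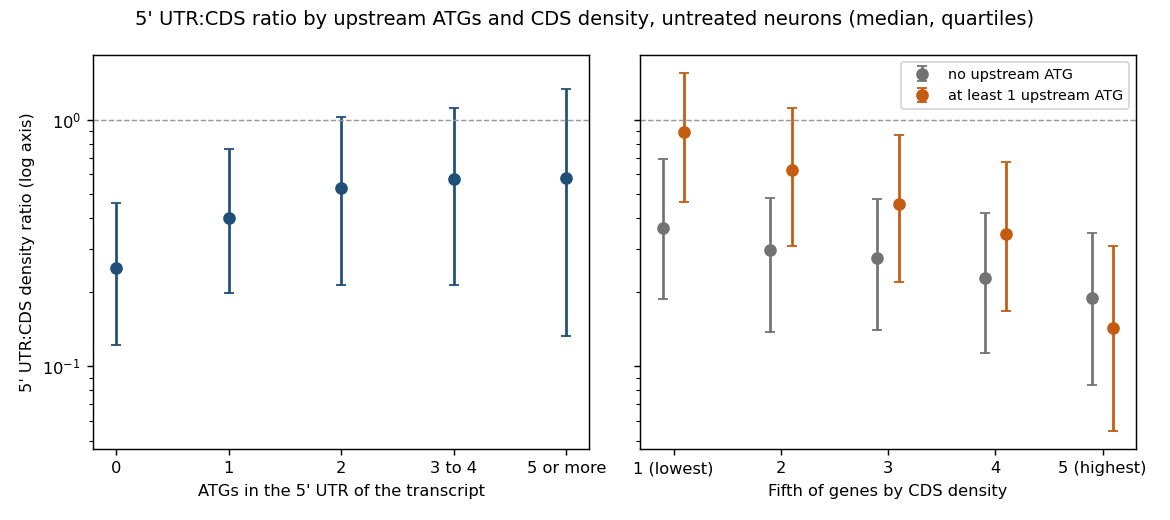
Median 5′ UTR to CDS density ratio (points) with quartiles (bars) on a log axis in the untreated library. The left panel groups genes by the number of ATGs in the leader, and the right panel by quintiles of CDS density with and without an upstream ATG, and the dashed line marks a ratio of 1. The median goes from 0.251 to 0.582 with the number of ATGs, and in the densest quintile genes with an upstream ATG lie lower (0.143) than those without (0.190).

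The 10 genes with the highest ratios all carried upstream ATGs. Of the 12906 genes with at least 10 CDS reads and an ATG start, 54.2% did. Of the 10 highest, Kmt2e, which encodes a chromatin regulator, had 478 leader reads in 522 nucleotides against 504 in a CDS of 5607 nucleotides, a ratio of 10.2 (8.99 to 11.5). Extl3, which encodes a heparan sulfate glycosyltransferase, had a ratio of 9.83 (8.86 to 10.9) with 12 upstream ATGs. Azin1, which encodes the antizyme inhibitor that raises polyamine synthesis, had 3190 leader reads and a ratio of 9.58 (8.85 to 10.4). Ppfia4, a liprin of the active zone, had 8.93, and Ifrd1, a transcriptional regulator, had 6.16. Slx4, Pkd1, Wrb and Unc13b were the others of nearly unique sequence, and 94.1% of the words of Srcap occur in other genes. All 10 also had a ratio of at least 1 on the transcript with the most reads, although Unc13b had 6.22 on 28 leader reads and only 1.22 there.

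The lowest ratios mostly marked leaders without any reads. Tuba1c, Nptn, Cox7c and Pdcl3 had 0 leader reads and Ppia had 1. For Cox7c, the transcript with the most reads had another leader with 683 reads and a ratio of 0.559. For Nptn and Ppia the transcripts with the most reads had ratios of 0.0468 and 0.0294. For Tuba1c and Pdcl3 the longest transcript was also the one with the most reads.

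Among the textbook uORF genes, 6 of 10 passed the filters and 4 of the 6 had a ratio of at least 1, beside 15.7% of all genes. Atf5 and Atf4 are stress-response transcription factors. Atf5 had 1626 leader reads and a ratio of 3.12 (2.89 to 3.36). Atf4 had 1901 leader reads and 3578 CDS reads, a ratio of 0.939 (0.888 to 0.993). Ppp1r15a and Ppp1r15b, regulatory subunits of the phosphatase that reverses eIF2 phosphorylation, had 2.70 (2.41 to 3.03) and 2.33 (2.07 to 2.63). Eif5, an initiation factor, had 1.13 (1.05 to 1.21), and Odc1, the first enzyme of polyamine synthesis, had 0.309 with 86.5% shared words.

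The other 4 did not pass. The leaders of Ddit3 (ratio 2.20), Mief1 (3.30) and Slc35a4 (4.71) overlap an annotated CDS. Amd1 had 115 CDS reads and 4 leader reads, with 100% shared words.

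Short uORFs of these genes and of 2 genes with high ratios are shown, since upstream ATGs are the feature by which leader ratios differed above. Each runs from its ATG to its stop codon, both in capitals. These are a selection, and uORFs longer than 30 nucleotides and some shorter ones of these genes are not printed. Positions count from the 5′ end of the longest transcript in GENCODE M21.

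Atf4: ATGgcgtatTAG
Atf5: ATGgctctgTAG
Ppp1r15b: ATGgtggagcgatctcacacggccTAG
Ppp1r15a: ATGgcttatttggtcTGA
Azin1, positions 463 to 486: ATGatagggggttccatctccTAA
Azin1, positions 560 to 589: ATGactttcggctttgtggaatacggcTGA
Odc1: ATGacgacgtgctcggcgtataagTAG
Wrb: ATGgcgctgtcgTAG

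The uORF of Atf4 spans positions 399 to 410 and that of Atf5 positions 122 to 133. In both genes a longer uORF follows, of 180 nucleotides from position 498 in Atf4 and 177 nucleotides from position 253 in Atf5, and it overlaps the start of the CDS. Leader reads were also split by exon. The exons of Atf4 upstream of the start exon had 600 reads in 502 nucleotides, or 1.20 per nucleotide. The 92 leader nucleotides of the start exon had 1301 reads, or 14.1 per nucleotide, which exceeds the CDS density of 3.41. Atf5 showed 0.549 upstream and 12.8 in the start exon, against 1.40 in the CDS. Azin1 was the reverse, with 6.29 per nucleotide in the upstream exons, 0.789 in the start exon and 0.564 in the CDS. Ribosomes on the annotated start codon and on a uORF that overlaps it are both counted in the start exon.

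Leader ratios also differed by functional class. Ribosomal protein genes had the lowest median, 0.0334 over 60 genes, and 0.0595 on the transcripts with the most reads. Oxidative phosphorylation genes had 0.148, actin and actin-binding genes 0.156 with 0 of 57 genes at or above 1, and stathmins and microtubule-associated proteins 0.206. At the other end, channels had a median of 0.625 with 23 of 78 genes at or above 1 (29.5%), neurofilaments, spectrins and ankyrins 0.586 with 4 of 12 (33.3%), and postsynaptic scaffolds and glutamate receptors 0.561 with 24 of 66 (36.4%), beside 15.7% of all genes. Synaptic vesicle and active zone genes had 0.308 with 6 of 72. Channel and postsynaptic genes had median CDS densities at the 40.1st and 57.8th percentile of all genes, and 28.6% and 36.9% of their leaders had no upstream ATG. The part of each in the class medians was not tested.

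The 3′ UTR background was low and uneven. Its ratio to the CDS had quartiles of 0.00311 and 0.0171, and 11.9% of the 7391 genes had 0 reads in the 3′ UTR. A ratio of at least 0.1 was found for 147 genes, or 1.99%. It was higher in short 3′ UTRs, with a median of 0.0251 in the shortest quintile and 0.00278 in the longest quintile. The median 3′ UTR density, with no count added, had the same order, at 16.5 and 1.36 reads per kilobase. By CDS density, the median ratio was 0.00934 in the sparsest and 0.00590 in the densest quintile. No order is read from these values, since the 0.5 added to each count weighs more where reads are few and the CDS count enters both measures. The median 3′ UTR density went from 0.723 to 24.8 reads per kilobase over these quintiles, and the median CDS density from 0.142 to 3.69 reads per nucleotide.

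A single gene carried much of the pooled background. Lrrc58 had 29363 reads in a 3′ UTR of 7396 nucleotides, 19.8% of all 3′ UTR reads of these genes, and a ratio of 3.25 (3.08 to 3.43). Of these reads, 28953 (98.6%) lie on Gm15725, a transcribed processed pseudogene nested in that 3′ UTR, in which 32.2% of the words of Actb also occur. Stx4a, a plasma membrane syntaxin, had the highest ratio, 3.35 (2.80 to 4.00), from 248 reads in 284 nucleotides with no annotated transcript nested there. Baiap2l2 (0.584), Paxx (0.576), 1110065P20Rik (0.422) and Phlda1 (0.332) followed among genes with at least 30 reads in the 3′ UTR. The other 4 of the 10 highest, Lama5, Xrcc5, Mtx1 and Ttc27, rested on 2 to 23 reads.

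Across classes the median 3′ UTR ratio ran from 0.00272 for ribosomal proteins to 0.0174 for oxidative phosphorylation genes. Only 31 ribosomal protein genes passed its filters. In the latter class, 0 of 59 genes reached 0.1, beside 1.99% of all. Among the densest genes it was 0.000493 for Mapt and 0.0165 for Sst.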

How the data were processed

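Ribosome-protected fragments from untreated primary cortical neurons (1 library, WT, grouped by the treatment label) were analysed from 3 deposited tables, for the 5′ UTR, CDS and 3′ UTR. The counts deposited by the authors are whole numbers of reads per exon segment, made with Plastid per the file headers from reads of 25 to 100 nucleotides counted at the 5′ end with offset 0 on mm10, after removal of ribosomal and duplicate reads. The methods name TopHat, with many placements of a read allowed, for the uORF search on these libraries, and Rsubread for the counts made with Plastid. The file headers do not state which alignment was counted here. The deposited coverage signal is the count per nucleotide and the RPKM deposited beside it scales the count by length and library size, and neither entered a computation. The free-text sample description names another kind of fraction and was not used. Plastid counts only the sense strand.

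Transcript identifiers were matched to GENCODE M21 symbols (99.4% of 142446 without version), segments were summed per transcript, and the longest transcript per gene with all 3 regions was kept. The library total was 30219197 reads, and 0 reads allow up to 3. Shares carry Wilson 95% intervals, densities exact Poisson intervals and ratios counting intervals. Amplified reads need not be independent molecules. No test was made, since there is 1 library. Named genes were the 25 densest with at least 200 CDS reads, the 3 densest per class, the 10 highest and 5 lowest 5′ UTR ratios, the 10 highest 3′ UTR ratios, textbook uORF genes and cell type markers. Members of complexes, 2 gene classes, and genes named for their reads on pseudogenes or identical CDSs were chosen after values were seen. Members and lists were chosen with earlier results of these data known. Calculations used Python 3.11.15, NumPy 2.4.6, pandas 2.3.3 and SciPy 1.17.1, and were tested on simulated data. Chx and Harr tables were not used. Some genes that the rule names are not reported here.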

Additional observations from a re-analysis of the deposited data

Results flagged for a closer look

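One signal lay outside the regions that the report ranks. The 3082840 reads on processed pseudogenes, 10.2% of the library, fall on transcripts that have no CDS rows and so enter no density or class share unless they are added to a parent gene. The 3 counts that a count of 0 allows apply to a single gene, so they set no background for this total. In all, 5237 of the 10234 pseudogenes had at least 10 reads. For 340 parent genes with at least 200 reads in total, the copies carried more reads than the parent's own CDS rows. The origin of these reads was not tested.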

How the results depend on the processing

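Alternatives mostly moved shares by more than counting error, which is narrow here, and some by over 1.5 times. The 5′ UTR, CDS and 3′ UTR shares were 6.39%, 91.3% and 2.33% on the transcript with the most reads, 6.29%, 91.7% and 2.04% with only genes under 10% shared words, 5.86%, 93.1% and 1.02% without genes that have a UTR overlapping a CDS, and 6.63%, 91.1% and 2.26% without the 50 most read genes. The share of the 100 densest genes was 18.1% with only genes under 10% shared words, 16.6% with only CDSs of at least 300 nucleotides, 20.7% ranked by reads and 16.7% with pseudogene reads added. All classes together held 52.3% on the transcript with the most reads, 48.4% with only genes under 10% shared words, 52.6% with CDSs of at least 300 nucleotides and 56.6% with pseudogene reads added. The median 5′ UTR ratio was 0.362 on the transcript with the most reads, 0.370 under 10% shared words, 0.410 with a pseudocount of 5, 0.264 with at least 1000 and 0.392 with at least 10 CDS reads, and 0.176 in exons upstream of the start exon. The median 3′ UTR ratio was 0.00824 on the transcript with the most reads, 0.0158 with a pseudocount of 5, 0.00571 with at least 1000 and 0.0106 with at least 10 CDS reads, and 0.00784 with overlapping UTRs kept. The higher values with a pseudocount of 5 follow from adding counts to sparse UTRs, and for the other changes the cause was not tested. Adding pseudogene reads and upstream exons were chosen after seeing the data. With pseudogene reads added, 2 of 30 class shares and 16 of 168 named gene densities rose by over 1.5 times. With only genes under 10% shared words, 5 of 30 class shares fell by over 1.5 times. Among these, cytosolic ribosomal proteins went from 1.23% to 0.0554% and tubulins from 1.83% to 0.629%. With the most read transcript 2 named densities rose and 1 fell by over 1.5 times. No paired analysis was possible because there is 1 library and no result comes from a test. For the same reason no replicate could be left out.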
